A study of Mus musculus with 235 samples.

Results

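Apoe, Apoc1, Apoc2 and Apoc4 lie next to each other on mouse chromosome 7 and encode 4 exchangeable apolipoproteins of the liver. Each was read from its own probe set, annotated with that symbol alone, and together they are 4 of the 18146 genes measured. The probe sets were 1432466_a_at for Apoe, 1417561_at for Apoc1, 1418069_at for Apoc2 and 1418708_at for Apoc4, and no member had a further probe set to choose from. The genes were followed in livers (left lobe) from 31 strains, in female mice aged 8 to 10 weeks, that received isoniazid, an antibiotic used against tuberculosis, or its vehicle. Isoniazid was given at 100 mg/kg by gavage every day for 3 days and sterile water served as the vehicle, and livers were taken 24 h after the last dose.

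Vehicle groups held 4 mice per strain, 124 in all, and isoniazid groups 111 mice, each on its own Affymetrix array. In 9 strains 2 or 3 isoniazid mice were profiled, because mice that died before the end were left out by the submitters: LP/J, PL/J, NON/LtJ, LG/J and RIIIS/J had 3, and SM/J, MA/MyJ, SEA/GnJ and A/J had 2. The labels code 13 strains as showing steatosis, the build-up of fat in hepatocytes, under isoniazid: BALB/cJ, BTBR T+ tf/J, BUB/BnJ, C57BLKS/J, CBA/J, CE/J, DBA/2J, FVB/NJ, LG/J, NOR/LtJ, NZW/LacJ, SJL/J and SWR/J. The other 18 strains were 129S1/SvImJ, A/J, AKR/J, C3H/HeJ, C57BR/cdJ, C57Bl/6J, C58/J, KK/HIJ, LP/J, MA/MyJ, MRL/MpJ, NOD/LtJ, NON/LtJ, PL/J, PWK/PhJ, RIIIS/J, SEA/GnJ and SM/J. All levels and changes below are log2 values, so a change of 1 is a doubling, and a change is always isoniazid minus vehicle.

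Apolipoproteins are the protein coat of the particles that carry triglyceride and cholesterol in plasma. Apolipoprotein C-II is the cofactor that lipoprotein lipase needs to break down triglyceride in very low density lipoproteins and chylomicrons, and apolipoprotein E is the ligand through which remnant particles are taken up by receptors of the LDL receptor family. Apolipoprotein C-I activates lecithin cholesterol acyltransferase and slows remnant uptake, while apolipoprotein C-IV, the least studied of the 4, is carried on very low density lipoproteins. In liver the cluster is driven by promoters and by shared hepatic control regions downstream of Apoe, and Apoe is also made by macrophages.

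The bases directly before the start sites of Apoc2 and Apoc4 are shown because these were the members whose response to isoniazid differed between strains, as described below. Both are on the minus strand of GRCm38.p6, were taken from RefSeq and are written 5′ to 3′, ending at the base before the start site. Capitals mark AGGTCA, the core that many nuclear receptors bind. The Apoc2 stretch is chr7:19677942-19678191 and the Apoc4 stretch chr7:19681461-19681710.
Apoc2: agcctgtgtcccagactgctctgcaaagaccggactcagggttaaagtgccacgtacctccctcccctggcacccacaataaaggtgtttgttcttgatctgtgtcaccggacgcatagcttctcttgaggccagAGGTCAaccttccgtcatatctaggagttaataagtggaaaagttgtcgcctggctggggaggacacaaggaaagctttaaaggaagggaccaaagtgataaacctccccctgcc
Apoc4: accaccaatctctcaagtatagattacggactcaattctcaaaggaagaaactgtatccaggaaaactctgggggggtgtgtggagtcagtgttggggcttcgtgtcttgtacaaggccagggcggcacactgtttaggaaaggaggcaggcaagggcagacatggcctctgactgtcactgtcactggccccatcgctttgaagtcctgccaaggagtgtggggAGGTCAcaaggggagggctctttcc
The motif began 115 bases before the Apoc2 start and 25 bases before the Apoc4 start, and Apoc2 had a further match 43 bases into the transcript. Windows reached from 250 bases before to 50 after the start, and 3 of the 4 members had at least 1 such window, Apoc1 not among them. AGGTCA was present on either strand in 16.3% of 32851 promoter windows of that length. TATAAA, the TATA box, was in 13.6% of all windows and in 1 of the 3 Apoe windows, and in neither of those of Apoc2 and Apoc4. CACGTG, the E-box, and TGACGT, a core of the CREB family, were in 7.15% and 7.51% of all windows and in none of the 5 windows of the members. No probe set measures use of a promoter, so these matches are a description of sequence.

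Array medians ran from 3.96 to 4.21, and animals of the same group correlated at a median of 0.99 over all genes (337 pairs, 0.955 to 0.995). A narrower spread of values, with an SD of 2.10 to 2.20 against 2.23 to 2.35 elsewhere, was seen on 21 arrays, 10 of them of isoniazid animals, and their Apoc2 level lay 0.12 below that of their own groups on average. Over the 2000 genes that varied most between strains, 234 of 235 arrays were closest to their own strain. The other, of a NOD/LtJ vehicle animal, was closest to NOR/LtJ. Those genes were chosen on the same arrays, so closeness to the own strain was partly built in. RIIIS/J vehicle animal 2 stood apart: its Saa3, an acute phase gene, was at 13.21 against 5.07 to 7.63 in the other 3 vehicle animals, and results whose call or order it changes are given with and without it, a choice made after seeing the data. Hepatocyte markers were present throughout, with Alb (albumin) at 14.43 on average in vehicle livers. In whole liver, fewer cells of a type and less RNA per cell cannot be told apart.

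In vehicle livers, the level of all 4 genes differed between strains, Apoc2 over the widest range. The F test over the 31 strains passed for every member, against 53.4% of all genes tested (limma, Benjamini-Hochberg adjusted p = 1.15e-04 for Apoe, 6.66e-06 for Apoc1, 3.58e-20 for Apoc2 and 6.08e-04 for Apoc4). The call for Apoc4 was lost without the animals numbered 3 (adjusted p = 0.0647) and without those numbered 4 (0.264).

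The Apoc2 level in vehicle livers ran from 10.99 ± 0.15 (SD, n = 4) in AKR/J through a median strain at 11.43 to 11.91 ± 0.15 (SD, n = 4) in 129S1/SvImJ, a 1.89-fold range. Low levels were found in FVB/NJ (11.01), DBA/2J (11.06), PL/J (11.06) and CE/J (11.06), and high levels in SJL/J (11.88), SM/J (11.85) and BTBR T+ tf/J (11.78). The order was continuous: none of the 30 gaps between neighbouring strains exceeded the SD between animals of a group, 0.18.

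The other members spanned less, at levels nearer the top of the scale (14.65), and whether the array compressed their ranges was not tested. Apoe ran from 13.75 in PWK/PhJ to 14.11 in 129S1/SvImJ with a median of 13.98, Apoc1 from 13.24 in PWK/PhJ to 13.60 in BALB/cJ with a median of 13.52, and Apoc4 from 12.98 in C58/J to 13.37 in NOD/LtJ with a median of 13.23. PWK/PhJ, a strain derived from wild mice, was lowest for Apoe and Apoc1, below RIIIS/J by 0.12 and 0.17, each more than the animal SD of 0.08. For Apoe that gap was within the SD of those 2 strains (0.24). Without RIIIS/J vehicle animal 2, RIIIS/J was at 14.03 for Apoe and 13.49 for Apoc1, and the next strain above PWK/PhJ was C58/J for Apoe (13.89, gap 0.14) and SWR/J for Apoc1 (13.42, gap 0.18), gaps still over the animal SD (0.069 and 0.075). With all animals, every other neighbouring pair in the orders of Apoe and Apoc1, and every pair in that of Apoc4, lay within the animal SD. Sequence differences between strains under the probes were not examined, so a difference in level is one of probe signal.

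Vehicle levels of Apoe, Apoc1 and Apoc4 went together over the 31 strains. Pearson's r was 0.81 for Apoe and Apoc1 (Spearman's rho 0.54), 0.72 for Apoe and Apoc4 (rho 0.67) and 0.68 for Apoc1 and Apoc4 (rho 0.57), with permutation p adjusted over the 12 relations computed of 1.20e-04, 1.20e-04 and 1.60e-04 for r and 0.00466, 7.20e-04 and 0.0033 for rho. Leaving out the 2 strains farthest from the median of the first gene gave r of 0.62, 0.70 and 0.60. Such values were not particular to the cluster. Among 9072 genes at or above the median level, Apoc1 ranked 2 and Apoc4 21 by r with Apoe, and Apoc4 ranked 225 by r with Apoc1. Strains share ancestry and arrays share normalization, which the permutation p do not take into account. Apoc2 was the less related member: its r with Apoe, Apoc1 and Apoc4 was 0.25, 0.19 and 0.32 (rho 0.37, 0.34 and 0.39), and no adjusted permutation p passed (0.311, 0.478 and 0.165 for r, 0.0589, 0.0847 and 0.0508 for rho).

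Apoc2 rose with isoniazid over the strains, with a higher mean in every strain, while the mean changes of Apoe, Apoc1 and Apoc4 were close to 0. Over strains, Apoc2 in vehicle livers was at its lowest in AKR/J at 10.99, with a median of 11.43 and a highest value of 11.91. In isoniazid livers its lowest strain was C57Bl/6J at 11.42, its median was 11.93 and its highest strain was NZW/LacJ at 12.93. The groups overlapped over strains, but within a strain the mean was higher after isoniazid in 31 of 31.

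The mean rose from 11.42 ± 0.27 to 12.03 ± 0.33 (SD over 31 strains), a change of 0.61 (SE 0.05, 95% interval 0.51 to 0.71), or 1.53-fold. It was the only member called (limma over 31 strain differences, adjusted p = 2.55e-11), where 10.2% of genes were called higher and 9.85% lower. By size it ranked 15th among the rises and by p 7th of 18146 genes. Just 19 genes, 0.105%, were higher in all 31 strains. The rise was also seen on each of the 10 scan dates, at 0.52 to 0.68 by deviation from each strain's midpoint. Each date held both treatments for just 1 to 6 strains, and a midpoint draws on arrays of other dates. The values by date are therefore not independent repeats.

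**Figure D1:**
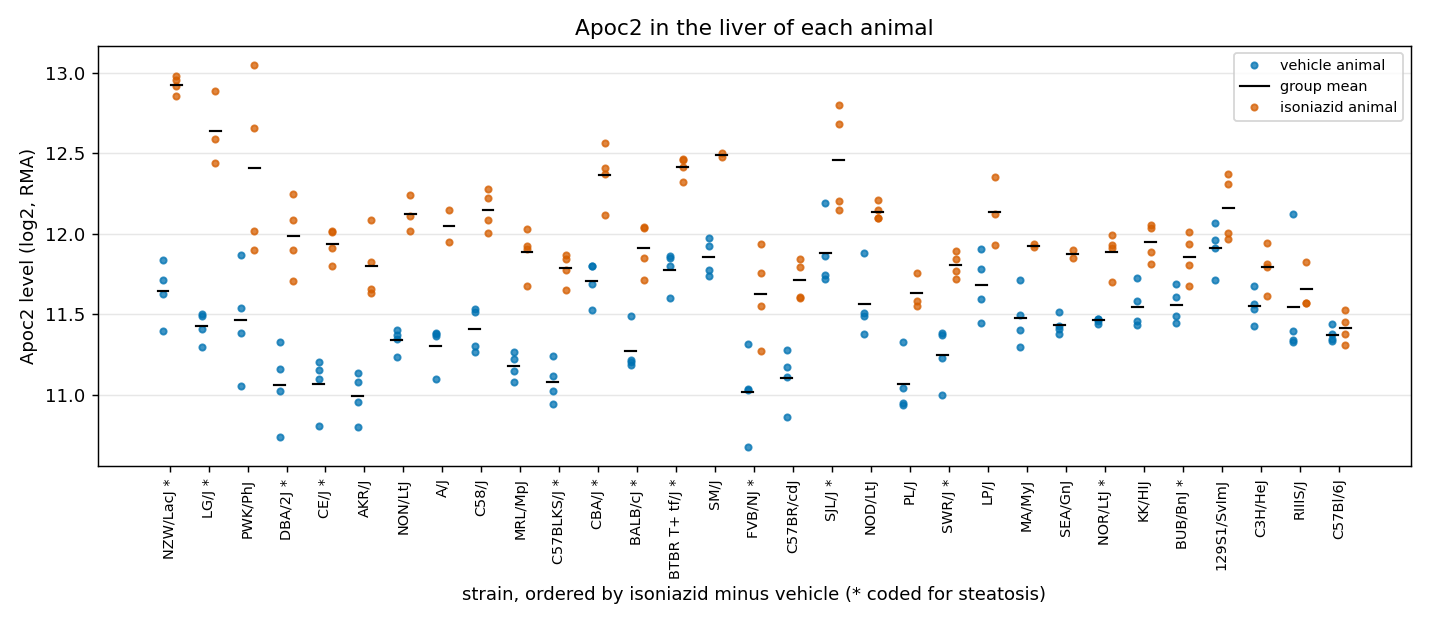
Apoc2 level (log2, RMA) in each animal by strain, ordered by isoniazid minus vehicle; blue points are vehicle animals, orange points isoniazid animals, bars group means and asterisks strains coded for steatosis. The change runs from 1.29 in NZW/LacJ at the left to 0.043 in C57Bl/6J at the right, and the 2 kinds of points overlap in 7 strains.

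Within strains, Apoc2 was called higher in 19 of 31, against 1.27% of all gene and strain contrasts called higher, and no other gene was called higher in as many. All isoniazid animals lay above all vehicle animals in 24 strains, a pattern seen in 5.04% of contrasts. Without the animals numbered 1 it was called higher in 12 strains. Strains with 4 isoniazid animals gave 17 calls of 22 and those with 2 or 3 gave 2 of 9.

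NZW/LacJ had the largest rise. Its vehicle animals were at 11.84, 11.39, 11.63 and 11.71 and its isoniazid animals at 12.98, 12.86, 12.92 and 12.96, a change of 1.29 (SE 0.13, adjusted p = 4.56e-15). The isoniazid animals lay close together and well above every vehicle animal.

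LG/J followed, with vehicle animals at 11.50, 11.41, 11.29 and 11.49 and isoniazid animals at 12.89, 12.44 and 12.59, a change of 1.22 (SE 0.14, adjusted p = 1.85e-11). Here too the groups were apart. In PWK/PhJ the vehicle animals were at 11.87, 11.05, 11.38 and 11.54 and the isoniazid animals at 11.90, 12.02, 13.05 and 12.66, a change of 0.95 (SE 0.13, adjusted p = 1.47e-09). The PWK/PhJ groups met at their edges, and its isoniazid animals were spread more widely (SD 0.54) than those of NZW/LacJ (SD 0.05). The SE and p of each strain rest on the spread pooled over all groups (SD 0.18), so they overstate the precision in PWK/PhJ.

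At the other end stood C57Bl/6J, the reference strain of the mouse genome. Its vehicle animals were at 11.44, 11.38, 11.34 and 11.33 and its isoniazid animals at 11.53, 11.45, 11.38 and 11.31, a change of 0.043 (SE 0.13, adjusted p = 0.889). The 2 groups lay on top of each other. RIIIS/J had a change of 0.11, with vehicle animals at 11.39, 12.12, 11.34 and 11.33 and isoniazid animals at 11.57, 11.57 and 11.83. Without vehicle animal 2, the one with the raised Saa3, its change was 0.30 (adjusted p = 1.00), and the isoniazid animals then lay above every vehicle animal.

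Between these ends the change was 0.92 in DBA/2J, 0.87 in CE/J, 0.81 in AKR/J and 0.79 in NON/LtJ. It was 0.74 in both A/J and C58/J, 0.71 in both MRL/MpJ and C57BLKS/J, 0.66 in CBA/J, 0.64 in BALB/cJ, BTBR T+ tf/J and SM/J, and 0.61 in FVB/NJ and C57BR/cdJ. SJL/J, NOD/LtJ, PL/J and SWR/J lay at 0.56 to 0.58. The lower values were 0.45 in LP/J and MA/MyJ, 0.44 in SEA/GnJ, 0.42 in NOR/LtJ, 0.40 in KK/HIJ, 0.30 in BUB/BnJ, 0.25 in 129S1/SvImJ and 0.24 in C3H/HeJ. Strains of a shared name could lie far apart, as C57Bl/6J, C57BLKS/J and C57BR/cdJ did at 0.043, 0.71 and 0.61, though such pairs were not tested.

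Tested against the spread of animals pooled over all groups, the size of the change differed between strains for Apoc2 and Apoc4. The F test of strain by treatment gave 4.35 for Apoc2 (adjusted p = 3.47e-08) and 4.59 for Apoc4 (adjusted p = 7.36e-09), where 17% of genes passed, and ranked them 147th and 132nd. It gave 1.15 for Apoe (adjusted p = 0.465) and 0.79 for Apoc1 (0.841), which did not pass. For Apoc4 the pooled SD was 0.12, against 0.59 in PWK/PhJ isoniazid animals. Within strains Apoc4 was called only in PWK/PhJ and NZW/LacJ, and the F test was not run without them.

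Apoe, the receptor ligand, was slightly lower after isoniazid in most strains. Over strains its vehicle level ran from 13.75 through a median of 13.98 to 14.11, and its isoniazid level from 13.78 through 13.93 to 14.05. The ranges overlapped almost fully, with the isoniazid mean lower in 24 strains and higher in 7. The change was −0.044 (SE 0.017, 95% interval −0.080 to −0.0094), or 0.97-fold, and did not pass (adjusted p = 0.0657).

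It passed when RIIIS/J vehicle animal 2 was left out, at −0.050 (adjusted p = 0.0322), and when MA/MyJ, PWK/PhJ or RIIIS/J was left out, each at −0.048 or −0.049 (0.0484, 0.0497 and 0.0432). That animal's Apoe was 13.38 against 14.00 to 14.07 in the other 3. No strain was called lower, where 0.723% of contrasts were, and all isoniazid animals lay below the vehicle animals in 6 strains, a pattern seen in 4.53% of contrasts. The changes by strain ran from −0.15 in CBA/J to 0.082 in RIIIS/J, and without animal 2 RIIIS/J was at −0.081.

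Apoc1, which encodes an activator of lecithin cholesterol acyltransferase, behaved much as Apoe. Its vehicle level ran from 13.24 through a median of 13.52 to 13.60 and its isoniazid level from 13.26 through 13.48 to 13.62. The change was −0.036 (SE 0.016, 95% interval −0.068 to −0.0031, adjusted p = 0.121), with 21 strains lower and 10 higher. No strain was called, and the changes by strain ran from −0.14 in BALB/cJ to 0.059 in A/J.

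Apoc4 fell in 2 strains and did not pass over the 31, where its mean was 13.22 ± 0.09 in vehicle and 13.20 ± 0.22 in isoniazid livers (SD over strains). The change over strains was −0.015 (SE 0.034, 95% interval −0.084 to 0.054, adjusted p = 0.83), with 20 strains higher and 11 lower. It was called lower in PWK/PhJ and NZW/LacJ and in no other strain, and higher in none, the highest change being 0.23 in MA/MyJ (adjusted p = 1.00).

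In PWK/PhJ the Apoc4 level of vehicle animals was 13.22, 12.80, 13.10 and 13.00 and that of isoniazid animals 12.77, 11.49, 12.59 and 11.95. The isoniazid animals lay below the vehicle animals and were spread over more than a log2 unit. The mean fell from 13.03 ± 0.18 to 12.20 ± 0.59 (SD, n = 4 each), a change of −0.83 (SE 0.09, adjusted p = 2.61e-15), or 1.78-fold lower. That SE and p rest on the spread pooled over all 62 groups (SD 0.12). The PWK/PhJ animals were spread more widely, so both overstate the precision in this strain.

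In NZW/LacJ the vehicle animals were at 13.21, 13.33, 13.31 and 13.31 and the isoniazid animals at 12.82, 12.89, 12.81 and 13.11. Again no isoniazid animal reached the lowest vehicle animal. The mean fell from 13.29 ± 0.05 to 12.91 ± 0.14 (SD, n = 4 each), a change of −0.38 (SE 0.09, adjusted p = 3.70e-04). PWK/PhJ and NZW/LacJ were also the strains with the most genes called, 1888 higher and 859 lower in PWK/PhJ and 1692 higher and 604 lower in NZW/LacJ.

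Without these 2 strains, a choice made after seeing the data, the Apoc4 change over strains was 0.026 (adjusted p = 0.452). The next lowest changes, −0.16 in LG/J, −0.15 in BTBR T+ tf/J, −0.13 in SM/J and −0.11 in LP/J, did not pass within strain. In the order of isoniazid levels, PWK/PhJ lay 0.71 below the next strain, NZW/LacJ, and no other gap exceeded the animal SD of 0.12.

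**Figure D2:**
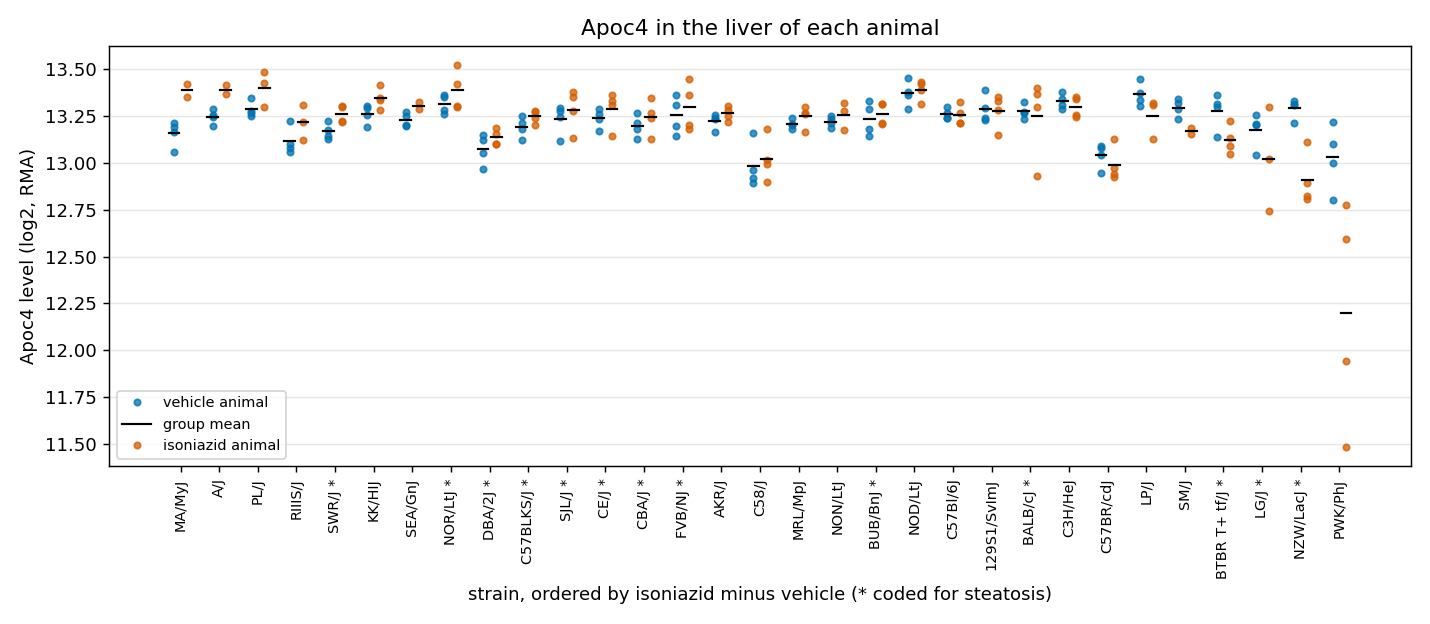
Apoc4 level (log2, RMA) in each animal by strain, ordered by isoniazid minus vehicle; blue points are vehicle animals, orange points isoniazid animals, bars group means and asterisks strains coded for steatosis. In PWK/PhJ, at the right, the mean fell by 0.83, and beside it in NZW/LacJ by 0.38, whereas in no other strain was a change called.

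The change of Apoc2 exceeded that of each other member in 31 of 31 strains. In vehicle livers Apoe, Apoc1 and Apoc4 averaged 13.98, 13.51 and 13.22, nearer the top of the scale (14.65) than Apoc2 at 11.42. Whether the array compressed their changes was not tested. The mean difference was 0.66 against Apoe, 0.65 against Apoc1 and 0.63 against Apoc4 (sign-flip permutation over strains, adjusted p = 2.00e-05 over the 6 pairs, from the smallest p that 1e+05 permutations can give, 1e-05). The differences among Apoe, Apoc1 and Apoc4 did not pass. They were −0.0087 for Apoe minus Apoc1 (95% interval −0.029 to 0.011, adjusted p = 0.57), −0.030 for Apoe minus Apoc4 (−0.10 to 0.041, 0.571) and −0.021 for Apoc1 minus Apoc4 (−0.089 to 0.047, 0.636). Without PWK/PhJ and NZW/LacJ, the differences from Apoc4 were −0.070 for Apoe and −0.061 for Apoc1 and both passed (adjusted permutation p = 1.92e-04). They passed without PWK/PhJ alone too, at −0.060 and −0.050 (0.00393 and 0.00848).

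**Figure D3:**
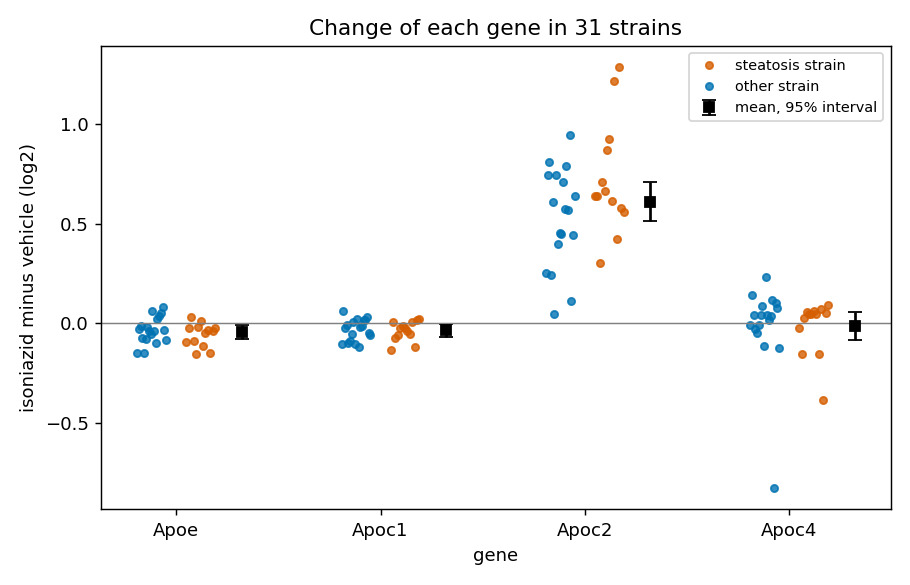
Isoniazid minus vehicle (log2) of each gene, with a point for each of the 31 strains, orange for the 13 steatosis strains and blue for the other 18, and a square for the mean with its 95% interval. Apoc2 lies above 0 in every strain with a mean of 0.61, and Apoc4 has 2 low strains at −0.83 and −0.38.

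The changes of Apoe and Apoc1 went together over the 31 strains (r = 0.57, rho = 0.59, adjusted permutation p = 0.00246 and 0.0033, r = 0.59 without the 2 farthest strains). In the 22 strains with 4 isoniazid animals the relation did not pass (r = 0.48, adjusted permutation p = 0.0711). Apoc4 moved with them by rank (rho = 0.43 with Apoe and 0.56 with Apoc1, adjusted permutation p = 0.0368 and 0.0033) and not by r (0.076 and 0.17, adjusted p = 0.689 and 0.499), although without PWK/PhJ r was 0.53 and 0.57 (0.00448 and 0.00216). Apoc2 and Apoc4 were related inversely by r, at −0.43 (adjusted permutation p = 0.0478), and not by rho, at −0.26 (0.19). That call was lost under 27 of 43 alternatives. In many of them r hardly moved, as without RIIIS/J vehicle animal 2 (−0.42, adjusted permutation p = 0.0526). Without PWK/PhJ and NZW/LacJ it moved to −0.18 (0.418). Outside these alternatives, r was −0.28 without NZW/LacJ and LG/J, for which no p was computed.

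**Figure D4:**
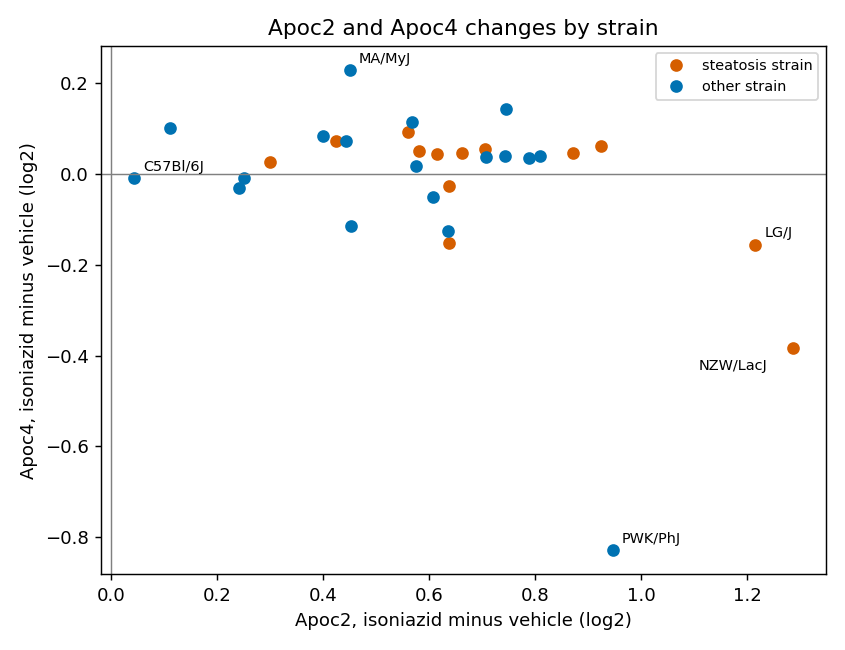
Apoc4 change against Apoc2 change (both isoniazid minus vehicle, log2), with a point for each of the 31 strains, orange for steatosis strains and blue for the others. PWK/PhJ, NZW/LacJ and LG/J combine changes in Apoc2 of 0.95, 1.29 and 1.22 with changes in Apoc4 of −0.83, −0.38 and −0.16, while MA/MyJ, at 0.45 for Apoc2, has the highest change in Apoc4 at 0.23.

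Whether the cluster responded differently in strains coded for steatosis was tested over strains. Apoc2 rose by 0.72 ± 0.28 (SD, 13 strains) in steatosis strains and by 0.53 ± 0.25 (SD, 18 strains) in the others, a difference of 0.20 (95% interval 0.01 to 0.39). It did not pass over all genes (limma, adjusted p = 1.00, unadjusted p = 0.0428). No gene passed this test, 0% of 18146, with 491 at an unadjusted p under 0.05. Steatosis is coded per strain, so animals of a strain are no independent replicates of it; a fit that treats them as such passed 35 genes, Apoc2 among them (adjusted p = 0.0487), and is no support for a difference.

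By strain, Apoc2 was called higher in 12 of 13 steatosis strains and in 7 of 18 others, where 1.61% and 1.03% of all gene contrasts in those strains were called higher. Among strains with 4 isoniazid animals, the counts were 11 of 12 and 6 of 10. The changes of Apoe, Apoc1 and Apoc4 differed between steatosis and other strains by −0.024, −0.0052 and −0.0031, and none passed (adjusted p = 1.00). In vehicle livers the steatosis strains differed from the others by 0.037 for Apoe, 0.0012 for Apoc1, −0.034 for Apoc2 and 0.0077 for Apoc4, and none passed. Again no gene did (0%, with 737 at an unadjusted p under 0.05).

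Among 9072 genes at or above the median level, those whose change over the 31 strains was most like that of Apoc2 were Bco1, a carotenoid cleaving enzyme (r = 0.77), Stimate, a regulator of store-operated calcium entry (r = 0.77), and Atox1, a copper chaperone (r = 0.76). Without NZW/LacJ and LG/J these were 0.66, 0.65 and 0.69. Apoa4, the apolipoprotein with the largest rise, had r = 0.61 (rank 292) and 0.30 without those strains. For Creb3l3, a hepatic transcription factor that drives Apoc2, r was 0.42 (rank 1887) and 0.31 without those strains. For Hnf4a, a master regulator of hepatocyte genes, r was −0.41 (rank 8667) and −0.41 without them. These correlations share their arrays and describe likeness only.

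The change of Apoc4 was most like that of Ces1d, a carboxylesterase, Pcx, pyruvate carboxylase, and F13b, a subunit of coagulation factor XIII, each at r = 0.91. Without PWK/PhJ and NZW/LacJ these fell to 0.49, 0.63 and 0.58. For Apoe the nearest were Mtch1 (0.65), Dhrs7 (0.62) and Urod (0.62), and for Apoc1 they were Gab2 (0.64), Tmem163 (0.62) and Hrct1 (0.62).

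In vehicle levels, the genes most like Apoe were Cygb (0.82), Apoc1 (0.81) and Macroh2a1 (0.79), so that its own neighbour ranked 2 of 9072. Those most like Apoc1 were Mrpl48 (0.85), Macroh2a1 (0.84) and Mtmr9 (0.83), and those most like Apoc4 were Poldip2 (0.80), Gpd1l (0.80) and Sh3glb2 (0.79). Apoc2 had no gene as near, its closest being Hspa14 (0.60), Peli2 (0.58) and Igsf23 (0.58). The other pairs of the cluster ranked lower. For Apoe, Apoc4 ranked 21 and Apoc2 2625, and for Apoc1, Apoe ranked 6, Apoc4 225 and Apoc2 3427.

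Along the chromosome, the measured neighbours had smaller changes than Apoc2, though those differences were not tested. Beyond Apoc2 lie Clptm1, which rose by 0.084 (adjusted p = 0.0165), Relb, a subunit of NF-kappa B, which fell by 0.17 (adjusted p = 3.79e-04), and Clasrp, Zfp296 and Gemin7, at −0.0058, 0.028 and 0.028, which did not pass. Beyond Apoe, Tomm40, a channel of the outer mitochondrial membrane, rose by 0.24 and Nectin2, an adhesion molecule, by 0.21 (adjusted p = 1.98e-04 and 0.00177), while Bcam was at 0.020 (0.811). Tomm40 and Nectin2 were higher in 25 of 31 strains each. In vehicle livers Relb was at 4.17, Zfp296 at 3.80 and Bcam at 4.15, near the array medians of 3.96 to 4.21. Whether signal at that level reflects expression was not tested. The other measured neighbours were at 6.03 to 8.48. The RefSeq table also lists Gm44805, a locus that spans Apoc2 and Apoc4 and was not analysed here, so signal from its transcripts cannot be told apart from that of either gene.

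**Figure D5:**
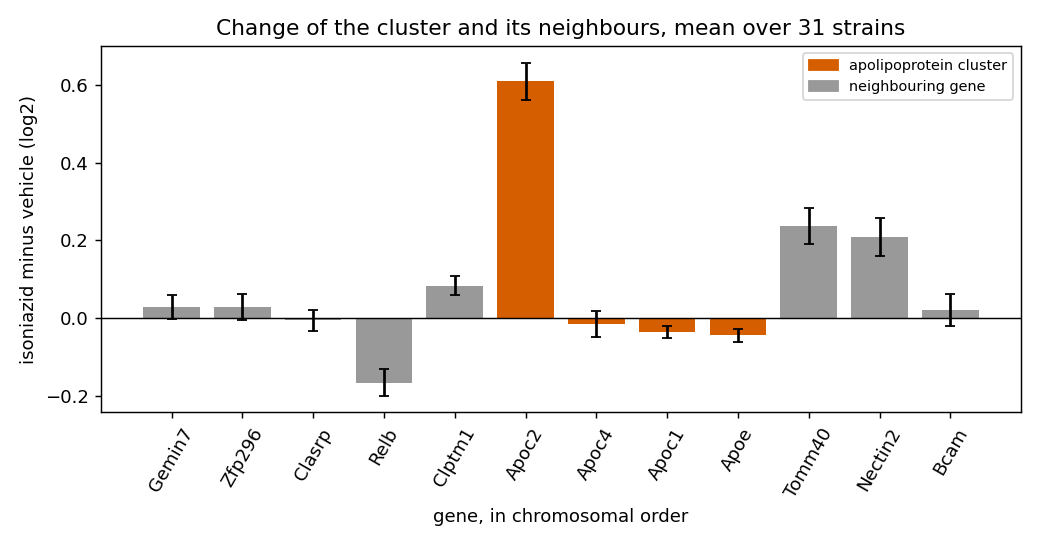
Isoniazid minus vehicle (log2, mean over 31 strains with its standard error) of the 4 genes, orange, and the measured genes on each side, grey, in chromosomal order without distances. Apoc2 stands at 0.61 between Clptm1 at 0.084 and Apoc4 at −0.015, and Tomm40 and Nectin2 are at 0.24 and 0.21.

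Of 13 other apolipoprotein genes, 4 rose and 2 fell, with a median change of 0.014 against 0.00096 over all genes. Over all genes 10.2% were called higher and 9.85% lower, the shares to set beside the counts of this and the following lists. Apoa4 rose by 0.92 (adjusted p = 2.76e-08), Apoa5, an enhancer of lipoprotein lipase, by 0.17 (1.39e-05) and Apoo by 0.25 (1.23e-06). Clu fell by 0.13 (1.32e-04) and Saa4 by 0.43 (7.25e-04). Apoa1, the main protein of high density lipoproteins, at 0.019, Apob, the core of very low density lipoproteins, at −0.026, and Apoc3, an inhibitor of lipoprotein lipase, at 0.042 (adjusted p = 0.064), did not pass.

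Of 11 genes listed for the regulation of lipoprotein lipase, the enzyme apolipoprotein C-II serves and itself in the list, 3 rose and 2 fell, with a median of 0.042. Creb3l3 rose by 0.11 (adjusted p = 0.00163), beside Apoa5, and Lmf1, which matures the lipase, by 0.12 (0.0438), a call lost under 25 of 47 alternatives at 0.051 to 0.16. Lpl itself, lowly expressed in adult liver, fell by 0.37 (4.05e-04) and Angptl8, an inhibitor of the lipase, by 0.53 (2.37e-04).

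Of 12 genes of lipoprotein assembly and remodelling, 2 rose and 4 fell, with a median of 0.031. Mttp, which loads lipid onto apolipoprotein B, and Surf4, a cargo receptor, each rose by 0.12 (adjusted p = 0.0336 and 0.0426), calls lost under 8 and 23 of 47 alternatives. Pltp, which transfers phospholipid, fell by 0.31 (3.88e-05), Dgat2, which makes triglyceride, by 0.19 (1.09e-04) and Lcat, the enzyme apolipoprotein C-I activates, by 0.15 (6.33e-05). Lpl, in this list too, was the fourth to fall.

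Of 12 genes of lipoprotein receptors and uptake, several of which bind apolipoprotein E, 1 rose and 4 fell, with a median of −0.032. Scarb1, the receptor for high density lipoproteins, rose by 0.16 (adjusted p = 0.00184). Vldlr fell by 0.37 (3.14e-05), Sorl1 by 0.17 (2.35e-04), Mylip, which degrades LDL receptors, by 0.21 (0.00161) and Lrp1, a remnant receptor, by 0.13 (0.00617).

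LXR, the sterol sensor, is known to switch on the cluster in macrophages. Of 12 genes in its list none rose and 6 fell, with a median of −0.041, led by Scd1, a desaturase, at −1.50 (adjusted p = 1.20e-08), and by Pltp and Mylip, while Nr1h3, which encodes LXR alpha, was at 0.029 (0.518). Of 17 regulators of hepatic apolipoprotein genes, 1 rose, Creb3l3, and 8 fell, with a median of −0.024. Hnf4a fell by 0.20 (1.29e-06), lower in 31 of 31 strains, Nr0b2, a repressor, by 0.58 (1.73e-06) and Foxo1 by 0.22 (3.66e-04).

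Markers of other liver cells are set against the 9.85% of all genes called lower. Of 15 Kupffer cell and macrophage markers, cells that also make Apoe, 9 fell and none rose, with a median of −0.21. Strain means of their summed level (log2) ran from 10.56 to 12.88 in vehicle and from 10.00 to 13.12 in isoniazid livers. Csf1r, the receptor for a macrophage growth factor, fell by 0.28 (adjusted p = 0.00234). The part of these cells in the Apoe values was not tested. Of 10 endothelial markers 2 fell, of 10 stellate cell markers 1 and of 5 bile duct markers 1. Of 5 B cell markers 3 fell, of 5 neutrophil markers 1, of 3 red cell markers 1 and of 7 T and NK cell markers none. None rose in any of these lists. Some lay near or below the array medians of 3.96 to 4.21 in vehicle livers. Among those called these were Ms4a1 (3.27) and Sox9 (4.30), the next lowest being Cd79b (4.88). The red cell marker Hba-a1 (2.78) was not called. Cd79a, another B cell marker, was at a change of 0.0031. Of 11 hepatocyte markers 1 rose, Cps1 by 0.17, and 1 fell, Cyp2e1 by 0.06, with Alb at −0.0092 (adjusted p = 0.779).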

How the data were processed

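The deposited table holds log2 values that the authors made with Affymetrix Power Tools and RMA (background correction, quantile normalization and probe-set summary), per the submitters' processing notes. Their versions are not given in these sources. Of 44721 probe sets, 34717 carried 1 gene symbol, 872 several and 9072 none, and 60 were controls. The probe set with the highest mean stood for a gene, which gave 18146 genes. The number of animals limits the precision. The animals are separate mice.

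Changes over strains were tested with limma 3.58.1 (lmFit and eBayes, R 4.3.3) on 31 strain differences, so that the strain was the replicate. Changes within strains, strain differences and strain by treatment were tested in a fit over all 62 groups of animals with 173 residual degrees of freedom. That fit pools the spread of animals over all groups, so its SE and p do not follow the spread of a single strain. Calls needed a Benjamini-Hochberg adjusted p under 0.05 over all 18146 genes. Differences and correlations between members used 1e+05 permutations, which treat the strains as independent although strains share ancestry. Methods were tested on simulated data. Animal numbers did not pair the samples: deviations of same-numbered animals had a median correlation of −0.023 over 111 pairs, and 23 pairs exceeded 0.1.

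Named genes were the members, the 3 genes most like each, 5 neighbours on each side, and from each list up to 3 rising and 3 falling genes with the largest statistics, with Apoa1, Apoa4, Apoa5, Apoc3, Apob, Lpl, Lrp1, Creb3l3, Nr1h3 and Hnf4a. Alb and Saa3 were chosen after their values were seen. Members and lists were chosen with earlier results of these data known. Alternatives covered scaling, filters, probe-set choice, scan date, animals as replicates, replicate block and omissions. Gene order and sequences are from RefSeq, GRCm38.p6.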

Additional observations from a re-analysis of the deposited data

Results flagged for a closer look

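In groups of 4 animals, 7 of 212 member and group combinations had an animal set apart from the other 3 by Dixon's criterion, which chance gives in about 1 in 20 groups, or 10.6 here. RIIIS/J vehicle animal 2 was set apart for 2 members, high for Apoc2 at 12.12 (the others at 11.33 to 11.39) and low for Apoe at 13.38 (14.00 to 14.07). For Apoc2, an A/J vehicle animal was low at 11.10 (11.36 to 11.38) and a BALB/cJ vehicle animal high at 11.49 (11.18 to 11.21). For Apoc1, a NOD/LtJ vehicle animal was high at 13.56 (13.49 to 13.50) and a NZW/LacJ vehicle animal low at 13.48 (13.57 to 13.59). For Apoe, an FVB/NJ isoniazid animal was high at 13.99 (13.89 to 13.90).

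The isoniazid change differed between strains by the F test of strain by treatment for Apoc2 (F = 4.35) and Apoc4 (F = 4.59).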

How the results depend on the processing

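The rise of Apoc2 passed under every alternative run, at 0.58 to 0.63, and its larger change than each other member passed too. Fitting the animal number as a replicate block gave 0.61 for Apoc2 and 3623 genes called, with Apoc2 called higher in 20 strains, and over strains Surf4 was the only named gene to lose its call. Requiring at least 1.5-fold left 54 genes called, 17 higher and 37 lower. For Apoe, the change passed with animals as replicates (−0.044, adjusted p = 3.92e-04), with probe sets averaged per gene or without dim genes (both −0.044), with weights by animals (−0.047), without the narrow-spread arrays (−0.045) and without RIIIS/J vehicle animal 2 (−0.050). It was called lower in 1 strain with mean probe sets, without dim genes, with a trended robust fit, without narrow-spread arrays and without that RIIIS/J animal. Apoc1 passed with animals as replicates (−0.036). For Apoc4 the sign turned without PWK/PhJ and NZW/LacJ (0.026). With animals as replicates, which ignores that steatosis is coded per strain, 35 genes passed for the steatosis difference, Apoc2 among them (0.20), and 1957 for vehicle levels by steatosis. Adding scan date to the fit, 5025 genes passed for strain by treatment.

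Uncalled values near 0 turned sign. The steatosis difference in change was 0.0022 for Apoe, 0.012 for Apoc1 and 0.065 for Apoc4 in strains with 4 isoniazid animals, 0.0044 for Apoc1 without PWK/PhJ and NZW/LacJ, and for Apoc4 0.0043 with scan date, 7.43e-04 with centred arrays and 0.0080 with weights. The vehicle difference by steatosis was −0.0029 for Apoc1 with centred arrays and, without PWK/PhJ and NZW/LacJ, −0.018 for Apoc1 and −0.0089 for Apoc4. Without that pair of strains the change of Apoe and of Apoc1 differed from that of Apoc4 (−0.070 and −0.061). Among other genes, Cygb was at −0.0030 with weights, −0.023 in strains with 4 isoniazid animals, −0.015 without narrow-spread arrays and −0.0031 without the pair, and with mean probe sets Dhrs7 was at 0.0098 and Mtmr9 at 0.11.

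In strains with 4 isoniazid animals the r of changes was 0.48 for Apoe and Apoc1, which no longer passed, 0.082 for Apoe and Apoc2, −0.17 for Apoe and Apoc4, −0.042 for Apoc1 and Apoc4 and −0.43 for Apoc2 and Apoc4. With centred arrays r was 0.22 for Apoe and Apoc2, 0.27 for Apoc1 and Apoc2 and −0.34 for Apoc2 and Apoc4. Without PWK/PhJ and NZW/LacJ it was 0.45 for Apoe and Apoc4 and 0.51 for Apoc1 and Apoc4, which then passed, 0.018 for Apoc1 and Apoc2 and −0.18 for Apoc2 and Apoc4. The last pair also did not pass with scan date (−0.41) or without narrow-spread arrays (−0.38). The causes were not tested.

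Leaving out animal numbers or strains gave −0.033 to 0.064 for Cygb, −8.72e-04 to 0.061 for Zfp296, −0.014 to 0.0028 for Clasrp and −0.042 to 0.057 for Bcam. These omissions, with that of RIIIS/J vehicle animal 2, gave −0.051 to −0.038 for Apoe and −0.023 to 0.012 for Apoc4. The steatosis difference in change ran from −0.016 to 0.0028 for Apoc1 and −0.051 to 0.028 for Apoc4, and that in vehicle level from −0.014 to 0.013 and from −0.0061 to 0.020. From 0 to 1 gene passed for vehicle levels by steatosis. Strains called numbered 0 to 1 for Apoe lower and 12 to 19 for Apoc2 higher, and 1313 to 3183 genes passed for strain by treatment. The vehicle F of Apoc4 ran from 1.31 to 2.51. Apoe minus Apoc4 ran from −0.060 to −0.017 and Apoc1 minus Apoc4 from −0.050 to −0.010. The r of changes ran from −0.27 to 0.12 for Apoe and Apoc2, −0.043 to 0.53 for Apoe and Apoc4, −0.16 to 0.079 for Apoc1 and Apoc2, 0.0037 to 0.57 for Apoc1 and Apoc4 and −0.53 to −0.26 for Apoc2 and Apoc4.

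For the 72 other named genes, 3182 of 3379 values under an alternative kept direction and side of the threshold, 153 fell short of it, 15 passed it and 29 turned sign. Apoe, Apoc1 and Apoc4 lay near the top of the scale, whose highest value was 14.65, and whether the array compressed their changes was not tested.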
